A study of Solanum lycopersicum with 12 samples.

Results

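The comparison concerns how the root transcriptome of tomato (Solanum lycopersicum) slstop1 mutants differs from wild type in acid solution without added aluminium (Al). The mutants are disrupted in the gene SlSTOP1. The tested plants were slstop1 mutants at pH 4.7 with 0 µM Al, and they were set against wild-type (WT) plants at the same pH and 0 µM Al. Of the 35768 gene models in the deposited table, 14744 had 1 FPKM or more in at least 3 of these 6 libraries, and those 14744 were compared. FPKM scales the fragments of a gene to the length of its transcript and to the size of the library. Each genotype had 3 libraries, described as biological replicates, from roots of plants aged 20 days. The series also holds slstop1 and WT roots at 60 µM Al and pH 4.7, with 3 libraries each, which entered the model and are given beside the results. All 4 groups were kept at pH 4.7, so every difference below is one between genotypes in acid solution, and a response to acidity as such was not measured. As for the mutant allele, the number of mutant lines and the WT cultivar, the sources used here do not give them. Effects of the mutation and other differences between the mutant and WT plants therefore cannot be told apart here.

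STOP1 is a C2H2 zinc finger transcription factor known in Arabidopsis for root growth in acid soil. There it switches on genes for malate efflux, which binds Al outside the root, and genes for pH homeostasis, nutrient uptake and the GABA shunt, a side route of the tricarboxylic acid cycle. Its activity in Arabidopsis is set largely after transcription, through the stability of the protein. Roots of Arabidopsis without STOP1 are sensitive to acid solution even when no Al is present.

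Few genes passed the test without Al. A gene was called when the Benjamini-Hochberg adjusted p of limma's test was under 0.05 over all 14744 genes, on the scale log2(FPKM + 1), which understates the change of genes with low values. By that rule 29 genes (0.197%) were called, of which 12 (0.0814%) were higher and 17 (0.115%) were lower in slstop1. At an unadjusted p under 0.05 there were 809 genes (5.49%). With 60 µM Al, the same test on the same genes called 1372 (9.31%), 121 (0.821%) higher and 1251 (8.48%) lower in slstop1, and the difference between the genotype differences at the 2 doses was called for 154 genes (1.04%).

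The middle of the distribution lay close to 0. The median log2 difference, slstop1 minus WT, was 0.01, and the 5th and 95th percentiles were -0.46 and 0.59. The median absolute difference between the genotype means was 0.136, and the median of limma's SE for that difference was 0.230. The median SD among the 3 slstop1 libraries was 0.205 and among the 3 WT libraries 0.317. These SDs describe single libraries and are not directly comparable with a difference of means. A difference of at least 1 on the log2 scale was reached by 229 genes upward and 128 downward, and 26 of these 357 genes were called. Among the 29 called genes the absolute difference ran between 0.74 and 2.94. Calls came at every level of expression, with 12 among 4477 genes with a mean under 5 FPKM, 11 among 7864 genes at 5 to 50 FPKM and 6 among 2403 genes over 50 FPKM. At the edge of the filter, 222 genes passed with the deciding value, the lowest of their 3 highest, at 1 to 1.1 FPKM, 229 others missed it with that value at 0.9 to 1 FPKM, and 0 of the 222 were called.

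**Figure D1:**
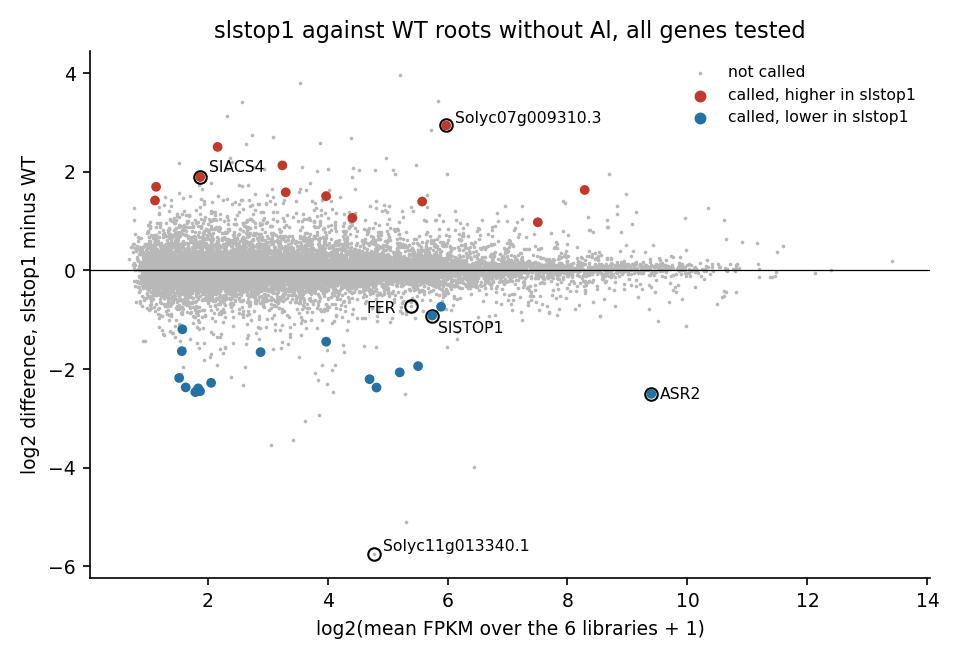
Each point is 1 of the 14744 genes compared, with its mean level over the 6 libraries without Al on the horizontal axis, as log2(mean FPKM + 1), and its log2 difference, slstop1 minus WT, on the vertical axis. The 12 genes called higher (red) and the 17 called lower (blue) lie among many uncalled genes with differences of the same size, and circles mark genes described in the text.

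The genotypes overlapped in the number of genes detected and in the share of the 10 most abundant ones. In the share of the 100 most abundant they did not. Between 14511 and 14570 genes reached 1 FPKM in the slstop1 libraries, against 13966 to 14753 in the WT libraries (exact permutation test, two-sided, p = 1). The 10 most abundant genes held 5.86 ± 0.384% of the summed FPKM in slstop1 and 5.96 ± 0.785% in WT (SD, n = 3 each; exact permutation test, two-sided, p = 0.8, where 0.1 is the smallest possible). The 100 most abundant held 21.9 ± 0.384% in slstop1 and 22.7 ± 0.311% in WT, without overlap (SD, n = 3 each; exact permutation test, two-sided, p = 0.1). Replicate 3 of WT stood apart. Measured against the mean of the other 2 replicates of its group, it had 1864 genes lower by at least 1 on the log2 scale and 483 higher, whereas the other 5 libraries had 202 to 464 lower and 250 to 662 higher. Its mean Spearman correlation with the other WT libraries was 0.912, the lowest within a genotype, although each of the 3 WT libraries correlated less with its own genotype (0.942, 0.935 and 0.912) than with slstop1 (0.954, 0.945 and 0.929). Without it, the median SD within WT was 0.120, which rests on 2 values per gene and is not directly comparable with an SD of 3. With replicate 3 of WT left out, the count at an unadjusted p under 0.05 was 1920 (13.2%). Limma then called 34 genes, 16 higher and 18 lower in slstop1, of which 16 were among the 29.

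**Figure D2:**
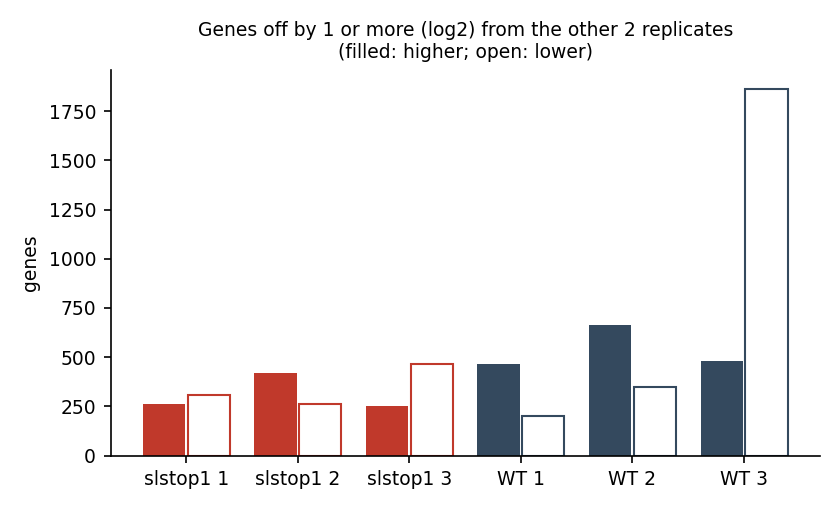
Bars give, for each library without Al, the number of genes that lay at least 1 higher (filled) or lower (open) on the log2 scale than the mean of the other 2 replicates of its genotype. Replicate 3 of WT had 1864 lower genes, and no other library had more than 464.

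The count of 29 depended on single libraries and on the libraries with Al, which helped to set the estimate of spread. Leaving out replicate 1, 2 or 3 of slstop1 without Al gave 8, 11 or 10 called genes, and leaving out replicate 1 or 2 of WT without Al gave 13 or 9. With replicate 1, 2 or 3 of slstop1 with Al left out, 18, 16 or 18 genes were called. A fit of the 6 libraries without Al alone, with 4 residual degrees of freedom, called 8 genes (3 higher, 5 lower), of which 5 were among the 29. Of the 29, 3 were called under all of the 24 alternatives that tested them, 8 under at least 20, and 0 changed sign under any. Of the 3, Solyc07g009310.3 and Solyc04g009780.1 were tested under all 24. The remaining one, Solyc04g016020.1, passed the filter only through the 3 WT libraries, so it was never tested with one of them left out, and its count says little of its stability. Some other called genes with low values were also tested under only 20 of the alternatives.

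The gene models carry Solyc identifiers without descriptions, and a RefSeq gene table (assembly SLM_r2.1) matched 0 of them. Gene names below come from published tomato nomenclature, and were kept only where that table lists that symbol on the same chromosome at a like rank, a check that does not separate close neighbours. SlSTOP1 was taken from its published identifier alone. Counts of called genes in the lists below stand against the 0.197% called over all tested genes, at which a short list would mostly hold none. Chromosome numbers are those in the identifiers, and no coordinates are used here.

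SlSTOP1 (Solyc11g017140.2, chromosome 11), the targeted gene, fell in slstop1. It stood at 39.8, 34.7 and 33.5 FPKM in the slstop1 libraries, against 72.7, 79.2 and 56.0 FPKM in the WT libraries. The groups did not overlap, and a reduced level of the transcript was present in every mutant library. Its mean was 36.0 ± 3.34 FPKM in slstop1 roots and 69.3 ± 12 FPKM in WT roots (SD, n = 3 each), 0.520 times the WT mean, and the log2 difference was -0.91 ± 0.138 (SE; limma, Benjamini-Hochberg adjusted p = 0.0275). With Al the difference was -1.52 ± 0.138 (limma adjusted p = 0.00016), and the 2 differences did not differ past the test (-0.61, limma adjusted p = 0.191). The call was lost in 11 of 24 alternatives: limma's adjusted p was 0.372 with only the 6 libraries without Al, and without 1 library at a time it was 0.082, 0.14 and 0.126 for slstop1 replicates 1, 2 and 3, 0.117 and 0.11 for WT replicates 1 and 2, and 0.0667, 0.0682 and 0.0586 for slstop1 replicates 1, 2 and 3 with Al.

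ASR2 was the most abundant gene called lower and had the largest called fall on the log2(FPKM + 1) scale. That scale understates falls of genes with low values. The ratio of means, WT over slstop1, was 5.76 for ASR2 and 38.9 for the called gene Solyc01g066160.1, described below. ASR2 (Solyc04g071580.3, chromosome 4) belongs to the ABSCISIC ACID STRESS RIPENING cluster, a run of neighbouring genes for small hydrophilic proteins that are known to be induced by abscisic acid and water deficit. It stood at 144, 237 and 216 FPKM in slstop1, against 1360, 1331 and 752 FPKM in WT. The lowest WT library, replicate 3, still stood above every slstop1 library. The means were 199 ± 48.5 FPKM in slstop1 roots and 1148 ± 343 FPKM in WT roots (SD, n = 3 each), and the log2 difference was -2.50 ± 0.350 (SE; limma adjusted p = 0.0195). With Al, where ASR2 was more abundant, it stood at 598, 507 and 496 FPKM in slstop1 and 5450, 2425 and 5974 FPKM in WT (-3.01 ± 0.350, limma adjusted p = 0.000712).

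The call of ASR2 without Al was lost in 7 of 24 alternatives. Limma's adjusted p was 0.122 with only the 6 libraries without Al. Leaving out 1 library, it was 0.0947, 0.0606 and 0.0781 for slstop1 replicates 1, 2 and 3 and 0.0749 and 0.094 for WT replicates 1 and 2.

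Its neighbours in the cluster did not pass the test. ASR1 (Solyc04g071610.3) had 773, 970 and 1014 FPKM in the slstop1 libraries, against 969, 1242 and 578 FPKM in WT (0.04 ± 0.285, limma adjusted p = 1). ASR4 (Solyc04g071620.3) stood at 438, 485 and 438 FPKM in slstop1, against 585, 1040 and 472 FPKM in WT (-0.54 ± 0.363, limma adjusted p = 1). ASR3 (Solyc04g071590.3), included after its values were seen, stood at 35.6, 55.6 and 42.1 FPKM in slstop1, against 28.1, 32.7 and 45.2 FPKM in WT (0.33 ± 0.199, limma adjusted p = 1). For each of these neighbours the genotypes overlapped. Differences between the members' responses were not tested, and genes of a cluster with similar sequence can exchange reads in the authors' quantification. In the list of 6 tested genes of abscisic acid and the ASR cluster, 0 were called higher and 1 lower, with a median log2 difference of 0.08, against 0.01 over all tested genes.

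Among genes without a name, Solyc07g009310.3 (chromosome 7) had the largest called rise on the log2(FPKM + 1) scale. It stood at 87.1, 107 and 136 FPKM in slstop1, against 9.13, 14.4 and 17.6 FPKM in WT. Every mutant library lay well above every WT library. Its mean was 8.04 times as high in slstop1, at 110 ± 24.7 FPKM against 13.7 ± 4.28 FPKM in WT (SD, n = 3 each; log2 2.94 ± 0.342 SE, limma adjusted p = 0.00693), and it was called under all 24 alternatives. With Al it was again higher, at 27.2, 52.2 and 46.2 FPKM in slstop1 and 4.16, 1.30 and 2.22 FPKM in WT (3.62 ± 0.342, limma adjusted p = 0.000192).

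Solyc06g017860.2 (chromosome 6) had the next largest rise on that scale among called unnamed genes that reached a group mean of 5 FPKM. Its ratio of means was larger, at 15.9. It stood at 6.30, 7.22 and 6.21 FPKM in slstop1, against 0.11, 1.13 and 0 FPKM in WT (log2 2.51 ± 0.285, limma adjusted p = 0.00651). The groups did not overlap, and with Al the gene stood at 1.74, 0.57 and 1.42 FPKM in slstop1 and was listed at 0 in all 3 WT libraries. Solyc04g009780.1 (chromosome 4), named after its values were seen, was lower at 7.77, 9.80 and 6.79 FPKM in slstop1, against 38.8, 54.0 and 45.9 FPKM in WT (-2.37 ± 0.230, limma adjusted p = 0.00201).

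Of the falls without a name, Solyc01g066160.1 (chromosome 1) had values of 0.39, 0 and 0 FPKM in slstop1, against 3.04, 6.57 and 5.55 FPKM in WT (limma adjusted p = 0.00651). It passed the filter only through the 3 WT libraries, so it was not tested with one of those left out. Its call was lost in 1 of 20 alternatives, with only the 6 libraries without Al (limma adjusted p = 0.122). With Al the gene was present in all libraries, at 4.62, 2.93 and 4.35 FPKM in the mutant against 8.52, 6.91 and 10.9 FPKM in WT. Of the 17 genes that fell, 6 lay on chromosome 4, where 1220 genes were tested (0.492% called, against 0.197% over all chromosomes), and 0 of the 12 that rose lay there. On chromosome 6, 3 rose and 2 fell (1303 tested, 0.384% called), and on chromosome 7, 3 rose and 0 fell (1089 tested, 0.275%). Those on chromosome 7 were Solyc07g009310.3 and, named after their values were seen, Solyc07g005100.3 and Solyc07g009080.3. No test of chromosomes was made.

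**Figure D3:**
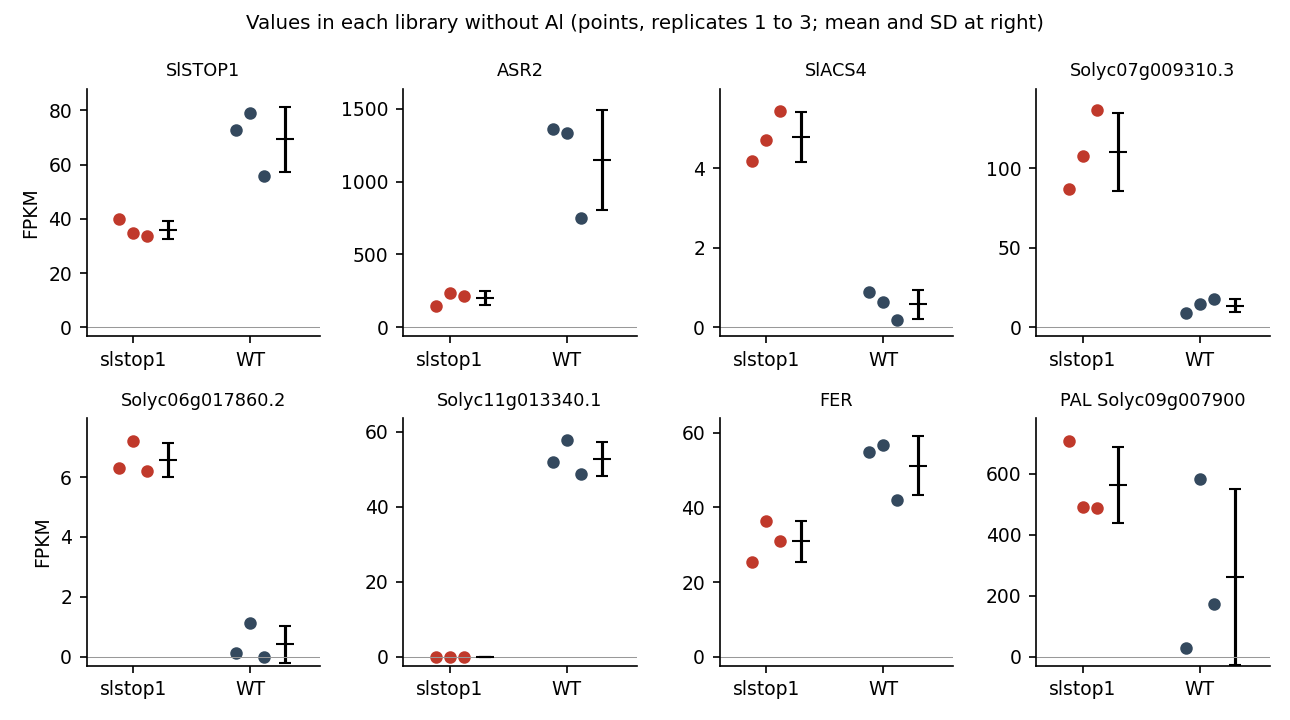
FPKM of 8 genes in each of the 3 slstop1 and 3 WT libraries without Al, with the mean and SD beside the points and a separate scale for each gene. SlSTOP1, ASR2, Solyc11g013340.1 and FER are lower in every slstop1 library than in any WT library, SlACS4, Solyc07g009310.3 and Solyc06g017860.2 are higher, and PAL Solyc09g007900 overlaps because WT spreads between 27.7 and 584 FPKM.

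A set of 5 genes was listed at exactly 0 in all 3 slstop1 libraries and at 1 FPKM or more in all 3 WT libraries. An exact 0 in such a table can be a failed estimate. For 115 tested genes the replicates of 1 genotype without Al held both a 0 and at least 10 FPKM, of which 0 were called. So wide a spread within a genotype makes a call unlikely in itself. That count therefore does not tell whether the zeros of the 5 genes are failed estimates. Apart from Solyc04g074540.2, these 5 genes were named after their values were seen. No fold change is given for them. They passed the filter only through the 3 WT libraries, so none was tested with one of those left out.

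Solyc11g013340.1 (chromosome 11) was listed at 0 in each slstop1 library and at 51.9, 57.7 and 48.8 FPKM in WT, the highest WT level of the 5. It was not called in the model of 12 libraries (limma adjusted p = 0.291), in which slstop1 with Al was again listed at 0 in all 3 libraries while WT with Al was spread over 0, 91.9 and 225 FPKM. Limma's adjusted p was 9.67e-05 with only the 6 libraries without Al and 1.76e-05 without WT replicate 1 with Al, the library at 0.

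The other 4, at 0 in slstop1, were called. A group listed at 0 throughout adds no spread to the residual variance of a gene, which lowers its SE and its p. Solyc04g016020.1 stood at 4.82, 4.56 and 3.27 FPKM in WT (limma adjusted p = 8.34e-05) and was listed at 0 in all 6 libraries with Al. Its small p thus rests in part on constant zeros, and over the alternatives that tested it limma's adjusted p reached 0.0273. Solyc04g074540.2 stood at 5.41, 9.11 and 1.5 FPKM in WT (limma adjusted p = 0.0362) and at 0 in slstop1 with Al too, against 1.47, 2.36 and 1.41 FPKM in WT with Al. Solyc06g005100.3 stood at 6.65, 6.07 and 2.12 FPKM in WT (limma adjusted p = 0.042), and at 0, 0.37 and 0 FPKM in slstop1 against 15.4, 30.2 and 9.37 FPKM in WT with Al.

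Solyc03g046250.1 differed in direction between the doses. Without Al it stood at 0 in every slstop1 library and at 2.71, 6.01 and 2.57 FPKM in WT (limma adjusted p = 0.0327), and with Al at 1.86, 1.99 and 2.92 FPKM in slstop1 and 0, 1.27 and 0 FPKM in WT (limma adjusted p = 0.0379). The calls of Solyc04g074540.2, Solyc06g005100.3 and Solyc03g046250.1 were each lost in 12 of 20 alternatives. Among these were the omission of any 1 slstop1 library at either dose, with limma adjusted p between 0.0586 and 0.167, and, for Solyc04g074540.2 and Solyc06g005100.3, of WT replicate 1 with Al (0.065 and 0.0785) and, for Solyc04g074540.2, of WT replicate 3 with Al (0.0597).

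In the reverse direction, 4 genes were listed at 0 in all 3 WT libraries and stood at 1.32 to 12.3 FPKM in slstop1, and 0 of them were called. They were Solyc02g077350.1 (limma adjusted p = 0.0748), Solyc02g089470.1 (0.499), Solyc04g077810.1 (0.275) and Solyc08g014060.3 (0.0795), named after their values were seen. With Al, each had a WT library above 0. Leaving out a library with Al gave a call for Solyc02g077350.1 (0.0223 without slstop1 replicate 3), for Solyc04g077810.1 (0.00134 without WT replicate 2) and for Solyc08g014060.3 (0.0358 and 0.0395 without WT replicates 1 and 2). With only the 6 libraries without Al, Solyc04g077810.1 (0.0171) and Solyc08g014060.3 (0.0273) were called, and a pseudocount of 0.1 gave a call for Solyc02g077350.1 (0.00035) and one of 5 for Solyc08g014060.3 (0.0492).

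Most genes called without Al differed in the same direction with Al. The comparisons at the 2 doses share no library, although they share 1 estimate of spread. Of the 12 genes higher in slstop1 without Al, 11 had a positive difference with Al and 8 were called higher there, where 0.821% of all tested genes were. Of the 17 lower genes, 15 had a negative difference with Al and 13 were called lower there, where 8.48% of all tested genes were, and 1, Solyc03g046250.1, was called higher. In 6 of the 29 the genotype difference itself differed between the doses (limma adjusted p under 0.05). The difference that chose the 29 is a term of that test, so the share of 1.04% over all tested genes is no measure for this count. For 6 of the 29, all 6 libraries with Al lay under 1 FPKM, so a difference with Al had little room to show.

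**Figure D4:**
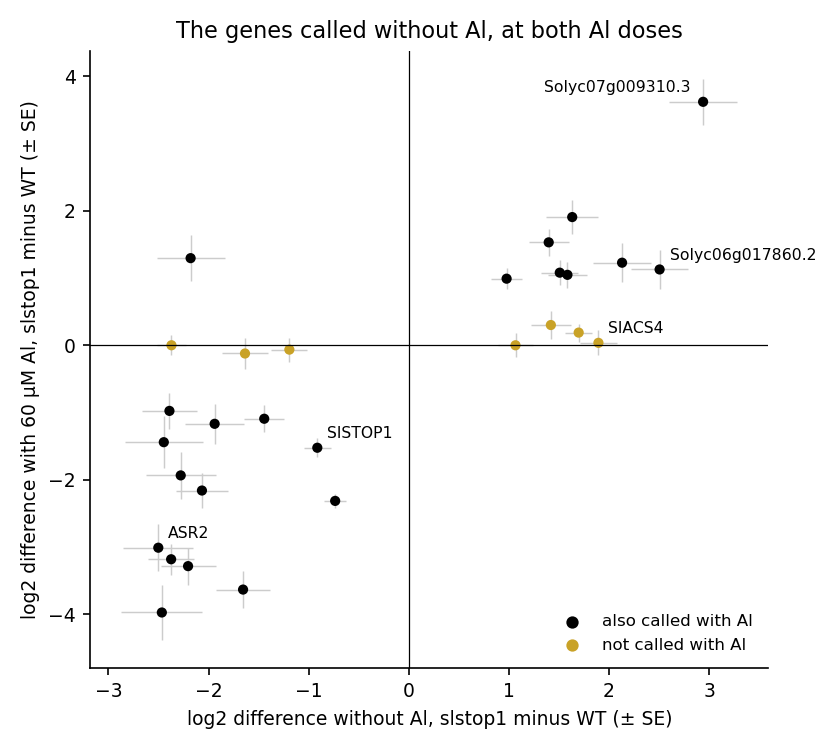
Each point is 1 of the 29 genes called without Al, with its log2 difference, slstop1 minus WT, without Al on the horizontal axis and with 60 µM Al on the vertical axis, bars giving limma's SE. Of these, 22 were also called with Al (black), 21 of them in the same direction, and 7 were not (yellow).

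SlACS4 rose in slstop1 without Al and lay near 0 in both genotypes with Al. SlACS4 (Solyc05g050010.3, chromosome 5) encodes an ACC synthase, the enzyme that makes the precursor of ethylene, and it was named after its values were seen. It stood at 4.18, 4.71 and 5.44 FPKM in slstop1, against 0.90, 0.64 and 0.19 FPKM in WT. The lowest mutant library was above 4 FPKM and all WT libraries were under 1 FPKM. The mean was 8.28 times as high in slstop1 (4.78 ± 0.633 FPKM against 0.577 ± 0.359 FPKM in WT, SD, n = 3 each), with a log2 difference of 1.89 ± 0.184 (SE; limma adjusted p = 0.00201). With Al it was at 0, 0 and 0.11 FPKM in slstop1 and 0, 0.03 and 0 FPKM in WT, and the difference between doses was -1.86 ± 0.260 (limma adjusted p = 0.0086). The call was lost with a pseudocount of 0.1 (limma adjusted p = 0.0728) and with only the 6 libraries without Al (0.122). In the full model the libraries with Al, all near 0, added little to the estimate of spread. SlACS4 passed the filter only through the 3 slstop1 libraries, so its call was not tested with one of those left out.

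The other genes of ethylene synthesis and perception did not pass the test. Of 9 tested, 0 were called, and the median log2 difference was 0.06, against 0.01 over all tested genes. SlACO4, an ACC oxidase, which catalyses the last step of ethylene synthesis, stood at 145, 153 and 135 FPKM in slstop1, against 243, 278 and 180 FPKM in WT. Its groups did not overlap, as was so for 8.17% of all tested genes (4.72% with slstop1 higher and 3.45% with slstop1 lower), and the difference of -0.67 ± 0.285 had a limma adjusted p of 0.848. With Al, SlACO4 was called lower (-1.46, limma adjusted p = 0.0107).

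Another pair of ethylene genes are given after their values were seen. The receptor gene NR stood at 11.4, 12.1 and 11 FPKM in slstop1, against 16.0, 14.9 and 13.6 FPKM in WT, without overlap (-0.34 ± 0.158, limma adjusted p = 0.918). SlACO1 stood at 5.07, 7.25 and 0.83 FPKM in slstop1, against 1.66, 1.47 and 0.65 FPKM in WT, with overlap (1.03 ± 0.458, limma adjusted p = 0.893). SlACO2, another ACC oxidase gene, and SlEIN2, a central component of ethylene signalling, had differences of -0.26 and 0.06 and overlapping groups.

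FER, the transcription factor (bHLH type) that switches on iron uptake in tomato roots, was lower in every mutant library without passing the test. FER (Solyc06g051550.3, chromosome 6) stood at 25.3, 36.3 and 31.0 FPKM in slstop1, against 54.8, 56.8 and 42.1 FPKM in WT. The groups did not overlap, and the means were 30.9 ± 5.50 FPKM in slstop1 roots and 51.2 ± 7.97 FPKM in WT roots (SD, n = 3 each). The log2 difference of -0.71 ± 0.267 had a limma adjusted p of 0.671 (unadjusted 0.0214), and the adjusted p ranged between 0.171 and 1 over the alternatives. With Al the difference was -2.45 ± 0.267 and was called (limma adjusted p = 0.000482), and the 2 differences did not differ past the test (-1.74, limma adjusted p = 0.0564).

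Neither of the other iron genes named passed the test. CHLORONERVA, the nicotianamine synthase gene needed for iron distribution, stood at 36.5, 42.0 and 38.3 FPKM in slstop1, against 52.7, 65.9 and 24.6 FPKM in WT. The metal transporter gene SlNRAMP3 averaged 12.4 ± 1.98 FPKM in slstop1 roots and 14.7 ± 3.03 FPKM in WT roots (SD, n = 3 each). Both overlapped. The log2 difference of CHLORONERVA was -0.18, and it was -0.59 without WT replicate 3 and 0.11 without WT replicate 2. Of 4 tested iron genes 0 were called, with a median log2 difference of -0.20.

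The tested genes of mineral uptake, a function that includes known STOP1 targets in Arabidopsis, were not called either. Several listed uptake genes, among them SlHAK5, SlNRT1.1, SlIRT1 and SlIRT2, were dropped because their names were not kept. Nothing is said here of those genes. Of 4 tested genes of potassium, sodium, phosphate and proton transport, 0 were called, and their median log2 difference was -0.10. The phosphate transporter gene SlPT1 stood at 147, 200 and 183 FPKM in slstop1, against 242, 269 and 106 FPKM in WT (-0.12 ± 0.290, limma adjusted p = 1), with WT replicate 3 below every mutant library. LHA4, a plasma membrane proton pump, had a difference of -0.06 ± 0.214, and the potassium channel gene SlAKT1 of -0.17 ± 0.347. With Al, SlPT1 was called lower in slstop1 (18.5, 17.5 and 19.9 FPKM, against 69.4, 75.1 and 90.3 FPKM in WT; -2.01, limma adjusted p = 0.0025).

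In nitrogen uptake and assimilation, 0 of 6 tested genes were called, with a median of -0.03. SlAMT1.1, an ammonium transporter gene of roots, averaged 257 ± 38.8 FPKM in slstop1 and 214 ± 88.0 FPKM in WT, and the like gene SlAMT1.2 averaged 82.6 ± 17.76 FPKM in slstop1 roots and 93.2 ± 40.5 FPKM in WT roots (SD, n = 3 each). SlGDH1, which makes glutamate dehydrogenase, stood at 154, 152 and 118 FPKM in slstop1, against 164, 142 and 159 FPKM in WT (-0.14 ± 0.161, limma adjusted p = 1). The asparagine synthetase gene SlASN1, given after its values were seen, was higher in each mutant library, at 39.7, 8.28 and 8.15 FPKM in slstop1 against 6.93, 2.20 and 3.54 FPKM in WT, with replicate 1 the highest in both genotypes, and did not pass the test (1.64 ± 0.505, limma adjusted p = 0.48).

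For the GABA shunt, part of the STOP1 pathway in Arabidopsis, 0 of 6 tested genes were called, against 0.197% of all tested genes, and the median was -0.08. SlGAD2, a glutamate decarboxylase gene that makes GABA, averaged 222 ± 42.3 FPKM in slstop1 roots and 242 ± 75.2 FPKM in WT roots (SD, n = 3 each; -0.09 ± 0.239, limma adjusted p = 1). The GABA transaminase genes SlGABA-T1 and SlGABA-T2, which break GABA down, had log2 differences of 0.11 ± 0.274 and 0.31 ± 0.385. SlGABA-T3, given after its values were seen, stood at 0, 1.37 and 0 FPKM in slstop1, against 4.19, 18.8 and 1.09 FPKM in WT, with overlap and a limma adjusted p of 0.729.

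SlAOX1a, an alternative oxidase gene that is known to rise under respiratory stress, stood at 101, 144 and 125 FPKM in slstop1, against 98.8, 94.1 and 41.2 FPKM in WT. The groups did not overlap, although slstop1 replicate 1 lay only just above WT replicate 1, and the difference of 0.74 ± 0.461 did not pass the test (limma adjusted p = 1). PAL Solyc09g007900, one of the phenylalanine ammonia-lyase genes that open phenylpropanoid synthesis, stood at 708, 492 and 489 FPKM in slstop1, against 27.7, 584 and 172 FPKM in WT (1.96 ± 0.781, limma adjusted p = 0.78). Its neighbour PAL Solyc09g007920 stood at 389, 339 and 449 FPKM in slstop1, against 504, 635 and 110 FPKM in WT (0.25), and PAL2 differed by 0.14. These PAL genes are near-identical copies in part, between which reads can be shared, and 0 of the 5 tested genes of their list were called, with a median of 0.24.

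Of the jasmonate, oxidative stress and heat shock genes, 0 were called, against 0.197% of all tested genes. Of 8 tested jasmonate and defence genes the median was 0.02, and SlAOC, which makes allene oxide cyclase of jasmonate synthesis, the receptor gene SlCOI1 and the transcription factor gene SlMYC2 had differences of 0.06, -0.03 and -0.03. The jasmonate repressor gene SlJAZ2, given after its values were seen, stood at 4.06, 5.10 and 2.95 FPKM in slstop1, against 3.65, 1.45 and 1.33 FPKM in WT, with overlap (0.73 ± 0.265, limma adjusted p = 0.64).

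Of 7 tested oxidative stress enzymes the median was 0.20. SlAPX1, a cytosolic ascorbate peroxidase gene, averaged 1360 ± 96.9 FPKM in slstop1 and 1190 ± 200.2 FPKM in WT, SlAPX2 averaged 232 ± 5.69 FPKM in slstop1 and 288 ± 86.4 FPKM in WT, and the superoxide dismutase gene SODCC.1 averaged 392.3 ± 20.1 FPKM in slstop1 roots and 332 ± 103 FPKM in WT roots (SD, n = 3 each). None of these passed limma's test, and in each the groups overlapped. With Al, SlAPX2 was called lower in slstop1 (-1.65, limma adjusted p = 0.00183).

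Among 5 tested heat shock genes the differences without Al lay between 0.05 and 0.16. The small heat shock protein gene Solyc06g076520.1 had values of 27.6, 27.8 and 29.4 FPKM in slstop1, against 28.7, 34.1 and 17.7 FPKM in WT (0.12 ± 0.290, limma adjusted p = 1). With Al it stood at 2.77, 0.91 and 2.15 FPKM in slstop1 and 13.6, 20.7 and 21.2 FPKM in WT (-2.76, limma adjusted p = 0.000388). Its close copy Solyc06g076570.3, with which reads can be shared, differed by 0.08 without Al, and HsfB1, a heat shock factor gene, by 0.16.

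Common reference genes and green tissue markers were not called. CAC, a clathrin adaptor gene used for normalisation in tomato, stood at 44.0, 36.6 and 43.3 FPKM in slstop1, against 37.0, 40.8 and 42.8 FPKM in WT. GAPDH averaged 1612 ± 47.9 FPKM in slstop1 roots and 1607 ± 381 FPKM in WT roots (SD, n = 3 each), and EF1a, whose near-identical copies can share reads, 13.7 ± 2.46 FPKM in slstop1 and 13.8 ± 10.3 FPKM in WT. The root-expressed FER and SlAMT1.2 were present in all 6 libraries. The 11 green tissue markers (RBCS, the small subunit of Rubisco, and chlorophyll a/b-binding CAB genes) summed to 25.5 to 58.1 FPKM in slstop1 and 27.1 to 60.8 FPKM in WT, 3 of the CAB genes were at 0 in all 6 libraries, and 0 of the 4 tested were called. In bulk tissue, fewer cells of a type and less RNA per cell cannot be told apart.

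Over all 14 lists, 69 named genes were tested, 0 were called higher and 2 lower, SlSTOP1 and ASR2, against 0.197% called over all tested genes. SlSTOP1 was listed as the targeted gene. An unadjusted p under 0.05 was found for 9 of the 69, against 5.49% of all tested genes. Groups did not overlap for 3 of the 69 with slstop1 higher, against 4.72% of all tested genes, and for 5 with slstop1 lower, against 3.45%. The median difference of the 69 was 0.05, against 0.01 over all tested genes. The malate channel gene SlALMT9 was not analysed here.

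**Figure D5:**
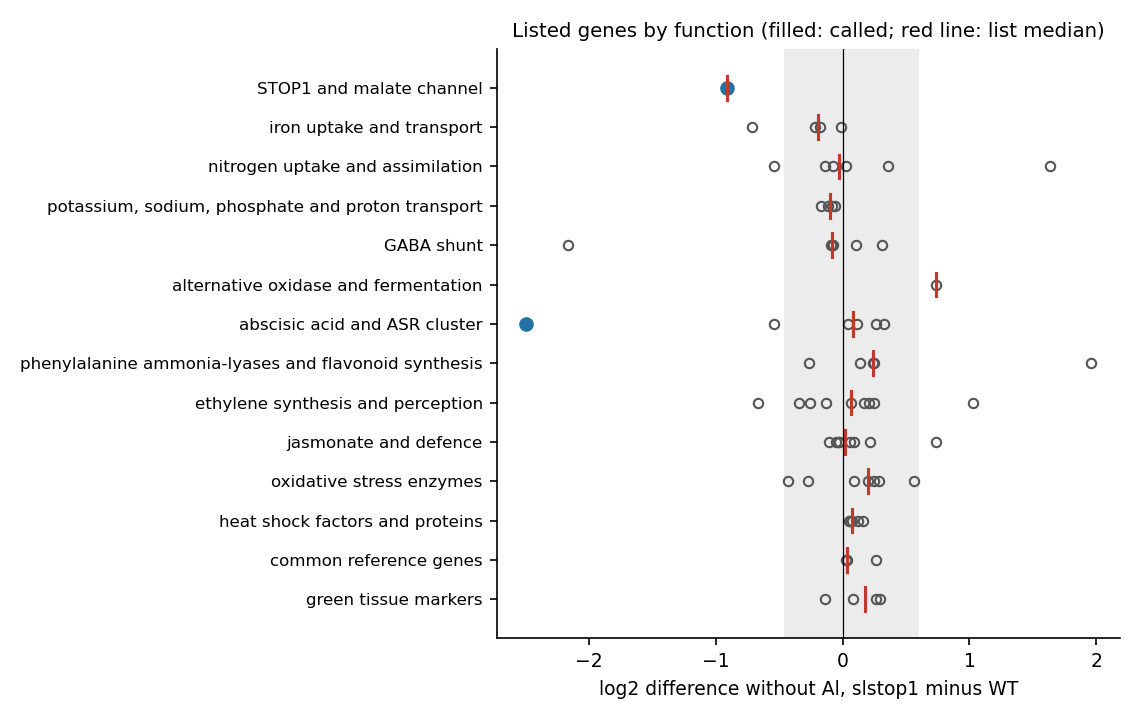
Each circle is a named gene at its log2 difference, slstop1 minus WT, without Al, in the row of its list, with called genes filled and the list median as a red line. The grey band covers the 5th to the 95th percentile of all 14744 genes (-0.46 to 0.59), and the 2 filled points are SlSTOP1 and ASR2.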

How the data were processed

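The authors deposited 1 table of 35768 gene models by 12 libraries. Its values, as deposited, were read as FPKM, because no unit is named there, decimals occur and column sums differ. TopHat2, HISAT2, StringTie and Cufflinks are named in the submitters' processing notes, without versions or roles, and the genome build is not given in the sources used here. No counting intervals can be given, the absolute depth being unknown. Relative depth, from ratios of values between 0.3 and 4 FPKM, spanned a factor of 1.35 among the 6 libraries without Al. No library duplicated another, since at least 99.5% of tested genes differed between any pair.

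Groups and replicate numbers came from the sample titles. Genes with 1 FPKM or more in at least 3 of the 6 libraries without Al were tested on log2(FPKM + 1) with limma 3.58.1 in R 4.3.3, in a group-means model over all 12 libraries with 8 residual degrees of freedom (eBayes with a trend, two-sided, Benjamini-Hochberg adjusted p under 0.05, no fold minimum). Errors of log2 differences are limma's SE. The labels call the replicates biological but do not say whether they were separate plants or pools, so p-values measure the spread between these samples. Library measures were compared by exact permutation with scipy 1.17.1, and figures were drawn with matplotlib 3.10.9 under Python 3.11.15. The code was first tested on artificial data with known answers. There, 42 of 100 genes changed by 1 on the log2 scale were called, and 88 of 100 changed by 2. It also called 13 unchanged genes, a larger share of its calls than the 0.05 at which the adjustment aims. Noise in the artificial data was independent and normal, with the same SD in all libraries for each gene. No library stood apart there as WT replicate 3 does, so these rates need not hold for the real data.

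The genes compared, the lists and the tests were chosen with earlier results of these data known. The text names SlSTOP1 and FER, each called list member and the 3 tested members of each list with the highest mean. It also names the 2 largest called rises and falls, on the log2(FPKM + 1) scale, among unnamed genes. These were chosen among genes with groups that do not overlap and a group mean of at least 5 FPKM. The text says where it goes beyond this. Of 130 listed identifiers, 92 names were kept by a match of chromosome and relative rank within 0.05 in the reference table, 37 were dropped, and SlSTOP1 was kept as the target. That match was chosen after the table was seen. The alternatives were pseudocounts of 0.1 and 5, 3 other filters on low values, quantile normalisation, scaling by median of ratios, robust eBayes, eBayes with no trend, only the 6 libraries, a replicate block, a log2 difference of at least 1, and leaving out each of the 12 libraries.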

Additional observations from a re-analysis of the deposited data

Results flagged for a closer look

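For 4 of the genes named, the genotype difference, slstop1 minus WT, was not the same with and without Al by limma's interaction term (Benjamini-Hochberg adjusted p over all tested genes), each value being the difference with Al minus that without on the log2(FPKM + 1) scale. For the small heat shock protein gene Solyc06g076520.1 it was -2.88 ± 0.410 (SE; limma adjusted p = 0.00955), with genotypes that overlapped without Al. For SlACS4 it was -1.86 ± 0.260 (limma adjusted p = 0.0086), with all libraries with Al at 0.11 FPKM or less. For Solyc03g046250.1 it was 3.47 ± 0.482 (limma adjusted p = 0.00823), from a group listed at 0 in slstop1 without Al. For Solyc04g016020.1 it was 2.37 ± 0.209 (limma adjusted p = 0.000581), with every library at 0 except the 3 of WT without Al. That value is its difference without Al with the sign turned. SlACS4, Solyc03g046250.1 and Solyc04g016020.1 were called without Al and named after their values were seen. The difference that chose them is a term of this test, so their p-values here are no separate support. Over all tested genes the term was called for 154 (1.04%).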

How the results depend on the processing

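Of 24 alternatives, 13 left the number of called genes within 1.5 times of 29. It was 16 with a mean of at least 5 FPKM, 8 with only the 6 libraries without Al, 11 with a replicate block, and 8 to 38 when 1 library was left out. The split of calls moved with the processing: 7 higher and 9 lower with the mean of 5 FPKM, 3 and 5 with the 6 libraries, 6 and 5 with the block, 15 and 15 with no filter, 10 and 3 without WT replicate 1 and 8 and 1 without WT replicate 2. Deviations of same-numbered libraries correlated at -0.14, 0.10 and -0.06, so no shared deviation was seen. These values cannot show whether same-numbered samples were grown or prepared together. SlSTOP1 (-0.91 with the full model) had a limma adjusted p of 0.372 with the 6 libraries and 0.0688 with the replicate block, missed a log2 minimum of 1 at -0.91, and ranged from -1.06 to -0.81 when 1 library was left out. FER stayed uncalled under all 24 alternatives, at -0.85 to -0.58. The difference in genes at 1 FPKM (62) ran from -190.7 to 202.8, and that in the share of the 10 most abundant genes (-0.0949 percentage points) from -0.533 to 0.225 with a library left out. Absolute depth is unknown, so the precision that counting allows at low values cannot be given.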
